A study of Mus musculus with 63 samples.

Results

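Mouse embryonic stem (ES) cells without the histone methyltransferase G9a were kept for 24 h at 1% oxygen and compared with the same cells kept for 24 h at 21% oxygen. The comparison takes 12 of the 63 cultures of the series: 6 cultures of the knockout lines G9a KO1 and G9a KO2 under 24 h of hypoxia, and their 6 counterparts in normoxia, chosen by title. All lines are TT2 ES cells (C57BL/6xCBA, labelled male), grown in serum with leukaemia inhibitory factor. Each line was seeded at 200000, 400000 and 600000 cells per 6 cm dish, exposure began 18 h after plating, and each culture gave 1 array. Other cultures serve for comparison: 6 of the same G9a KO lines after 20 h of normoxia and 4 h of hypoxia, 6 of a line made by putting G9a back into G9a KO1 (reconstituted, 3 per exposure), and 12 of the wild-type lines WT1 and WT2 (6 per exposure). Cultures of 2 knockout lines of the histone demethylase Jmjd1a are not compared here, but they enter the fits over all 63 arrays. A genotype is thus represented by 1 or 2 lines, and cultures of 1 line differ in seeding density, so p-values measure the spread among these cultures and not among independently derived lines unless lines are named.

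Cells sense oxygen mainly through hypoxia-inducible factor (HIF). Prolyl hydroxylases, encoded by the Egln genes, use oxygen to mark the HIF alpha subunits for destruction. Without oxygen the alpha subunit pairs with Arnt and switches on genes for glucose uptake, glycolysis, vessel growth and collagen maturation. G9a, encoded by Ehmt2, places mono- and dimethyl marks on lysine 9 of histone H3, a modification of silent chromatin, and in ES cells it is known for holding germline, 2-cell embryo and some retroviral sequences silent. Jmjd1a, encoded by Kdm3a, removes the same marks with oxygen as a substrate, and its gene is itself a HIF target.

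Values are log2 intensities of the deposited arrays after quantile normalization, with a floor of 4.32. The floor stands for the lowest deposited value, 20, and values within 0.05 of it after normalization were set to it too. Array totals were similar, 8172054 to 8350995 in G9a KO hypoxia and 7852991 to 8408782 in G9a KO normoxia. The share of probes with a deposited value above 20 was 42.8 to 45.98% and 43.15 to 45.28%. After normalization, the share above the floor was 42.8 to 43.35% and 43.15 to 43.35%. Arrays adjacent in the listing form sets of 8 at whose borders the values step. Neighbouring arrays of the same line and exposure had a median of 535 genes more than 1 log2 unit apart where a border ran between them (5 pairs), against 8 where none did (37 pairs). Within each G9a KO line, the 24 h hypoxia arrays and the normoxia arrays lie in different sets, so set and exposure cannot be told apart there without help from the other lines. Hypoxia against normoxia was therefore fitted without the set, with the set as a random block, and with the set as a fixed block chained through all 63 arrays. Differences between the responses of G9a KO lines were fitted without the set and with the random block.

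In G9a KO cells, 1831 of 8639 genes were higher (21.2%) and 2149 lower (24.9%) after 24 h of hypoxia at an adjusted p under 0.05 (limma, Benjamini-Hochberg over all genes), 46.1% in either direction. With the set as a random block as well, 1273 genes remained higher (14.7%) and 1287 lower (14.9%). Below, "rose" and "fell" are used for genes that passed both of these fits. The shares of 14.7% and 14.9% are the background for every list count below, and no list was tested against them. Of all genes called without the set, 1398 higher (16.2%) and 1583 lower (18.3%) changed the same way in all 6 pairs of equal line and density. Under the fixed block, 856 of the genes that were higher (9.91% of those tested) and 712 of those lower (8.24%) also passed. The median change over all genes was −0.001, so changes are relative to a centre near 0. Changes are log2 differences between 24 h hypoxia and normoxia ± SE from the fit, with 6 cultures per group.

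The targeted gene was read first. Ehmt2 ran from 8.26 through a median of 8.60 to 8.98 in G9a KO hypoxia, against 7.43, 7.91 and 8.03 in G9a KO normoxia. The groups did not overlap, and the transcript rose by 0.82 ± 0.09 (adjusted p = 5.2e-10). A further Ehmt2 probe gave 0.815. The cells thus gave signal at both probes. Where the probes lie relative to the deleted part of the gene is not given in the sources used here, so this reading does not check the knockout. Kdm3a ran from 11.05 through 11.17 to 11.39 in G9a KO hypoxia, against 10.74, 10.80 and 10.90 in G9a KO normoxia, again without overlap. It rose by 0.38 ± 0.06 (adjusted p = 5.62e-07), and its other probes gave 0.244 and 0.263.

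**Figure D1:**
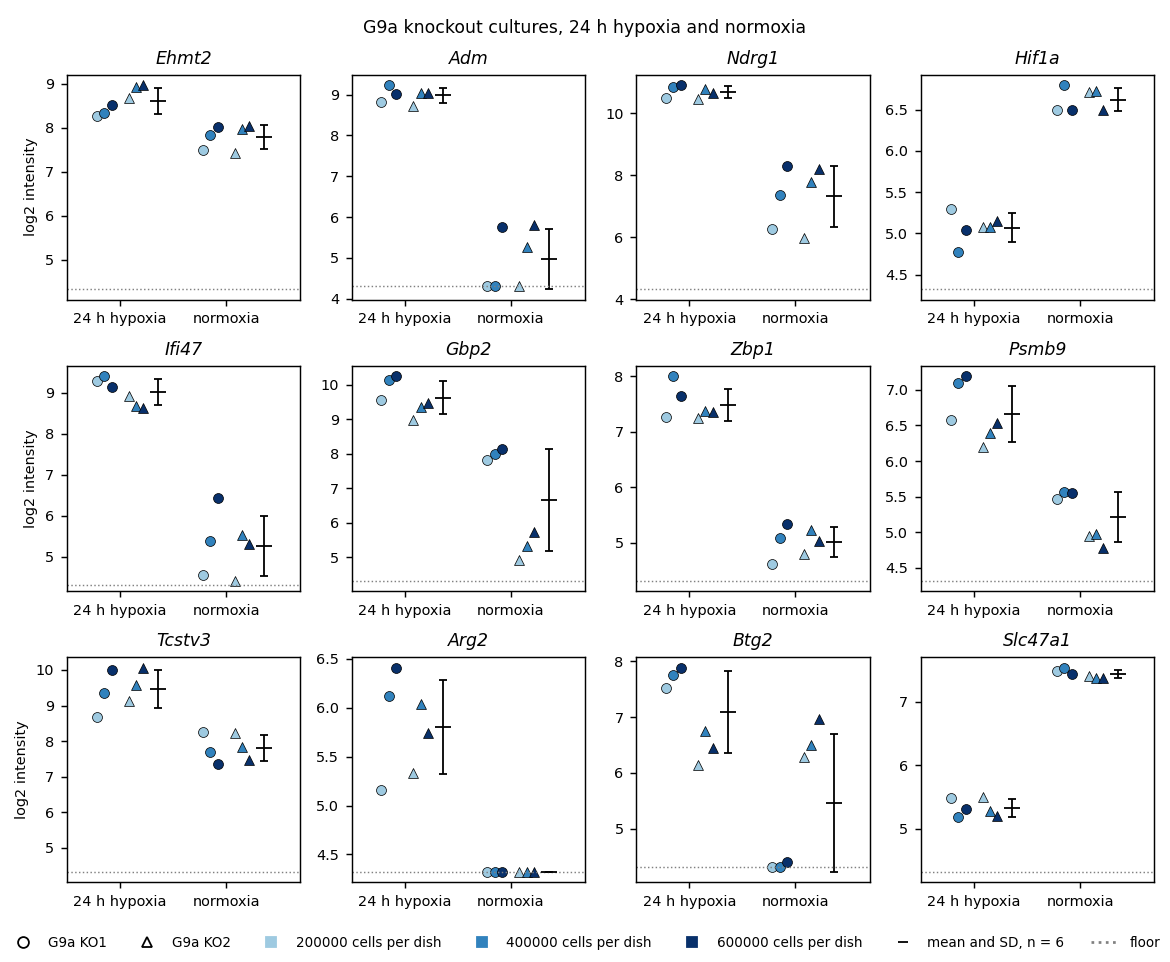
Log2 intensity of 12 genes in each G9a KO culture, 24 h hypoxia on the left of each panel and normoxia on the right. Circles are G9a KO1, triangles G9a KO2, darker points are denser seeding, bars are mean and SD (n = 6), and the dotted line is the floor of 4.32. Groups are apart for each gene except Btg2, where the 3 normoxia cultures of G9a KO2 (6.28 to 6.96) lie among the hypoxia cultures.

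The oxygen-sensing pathway and its feedback genes responded in both directions. Of 18 members tested, 8 rose and 4 fell, with a median of 0.12. Ndrg1, a stress-response gene induced by HIF, ran from 10.46 through 10.72 to 10.91 in G9a KO hypoxia and from 5.96 through 7.57 to 8.28 in G9a KO normoxia, and rose by 3.38 ± 0.21 (adjusted p = 9.31e-18). Egln3, the HIF hydroxylase that is itself a HIF target, rose by 2.53 ± 0.24, the transcriptional repressor Bhlhe40 by 2.06 ± 0.27, and Ddit4, an inhibitor of mTORC1, by 1.56 ± 0.17. All 3 were above their normoxia cultures in each of the 6 pairs of line and density. Hif1a itself fell: it had 4.77, a median of 5.08 and 5.30 in G9a KO hypoxia, against 6.49, 6.61 and 6.80 in G9a KO normoxia, a change of −1.55 ± 0.10 (adjusted p = 1.98e-16). Its partner Arnt fell by 0.53 ± 0.13 from levels close to the floor.

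Of 21 genes of glucose uptake and glycolysis, 13 rose and none fell. Under the fixed block 12 passed, and the median change was 0.56. The glucose transporter Slc2a1 ran from 13.12 through 13.34 to 13.54 in G9a KO hypoxia, against 11.69, 12.18 and 12.42 in G9a KO normoxia. It rose by 1.23 ± 0.07, and the lowest hypoxia culture was above the highest normoxia culture. Aldolase C (Aldoc) rose by 1.68 ± 0.09, the neuronal enolase Eno2 by 1.45 ± 0.16 and the liver phosphofructokinase Pfkl by 1.01 ± 0.06, though a second and dimmer Pfkl probe gave 0.42. The lactate exporter Slc16a3 was at the floor in 5 of 6 normoxia cultures and at 5.60 to 6.28 in hypoxia, so its change of 1.60 ± 0.12 can be understated. In glycogen metabolism, 4 of 8 genes rose and 1 fell, with a median of 0.26, led by glycogen phosphorylase Pygl (1.72 ± 0.09) and phosphoglucomutase Pgm1 (1.40 ± 0.16). A second and dimmer Pygl probe gave 0.76.

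Promoters of Slc2a1 and Egln3 are shown because both genes rose in each G9a KO pair and each holds the core that HIF binds. The letters ACGTG, searched on both strands of the RefSeq promoter windows of GRCm38.p6 (250 bases before to 50 after the start), were found in 10 of 14 pathway and feedback genes with a window and in 13 of 20 glycolysis genes. They were in 19.62% of all 32851 windows and in 30.13% of the 7073 tested genes with a window. Capitals mark the core, 36 bases upstream of the start in Slc2a1 and 229 in Egln3. The Slc2a1 stretch is chr4:119108645-119108764 on the plus strand, and the Egln3 window is chr12:54203825-54204124 on the minus strand.
Slc2a1: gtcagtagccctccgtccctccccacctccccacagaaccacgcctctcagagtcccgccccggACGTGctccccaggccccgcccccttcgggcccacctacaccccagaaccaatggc
Egln3: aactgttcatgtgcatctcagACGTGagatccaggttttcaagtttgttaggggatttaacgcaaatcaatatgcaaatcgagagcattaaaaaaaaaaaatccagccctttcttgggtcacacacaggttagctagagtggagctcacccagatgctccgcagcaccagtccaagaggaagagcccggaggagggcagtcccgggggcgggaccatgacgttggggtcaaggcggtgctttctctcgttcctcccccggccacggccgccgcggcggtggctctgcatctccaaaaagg
A match is a description of the letters and says nothing of binding. Hif1a, which fell, holds the core too.

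Other groups of the hypoxia programme rose as well. Among 6 mitochondrial hypoxia targets, 5 rose and 1 fell (median 0.79). Bnip3, a receptor for mitophagy, ran from 6.56 through 7.08 to 7.36 in G9a KO hypoxia, against 4.32, 4.55 and 5.83 in G9a KO normoxia, and rose by 2.19 ± 0.19, while Fam162a, a HIF-responsive mitochondrial protein, rose by 1.05 ± 0.07. Of 9 collagen hydroxylases and lysyl oxidases, 5 rose and none fell (median 0.54). The lysyl hydroxylase Plod2 was between 8.94 and 9.23 in hypoxia and between 6.62 and 7.19 in normoxia, a rise of 2.10 ± 0.07, and the prolyl hydroxylase subunit P4ha2 rose by 1.90 ± 0.12. Of 20 angiogenesis ligands and receptors, 10 rose and 2 fell (median 0.62).

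Adm, the vasodilator peptide adrenomedullin, led the angiogenic genes and all genes tested. It ran from 8.72 through 9.03 to 9.24 in G9a KO hypoxia, against 4.32, 4.80 and 5.81 in G9a KO normoxia, where 3 of 6 cultures were at the floor. Its rise of 4.02 ± 0.19 (adjusted p = 1.83e-21) can be understated for that reason. Anxa2, a plasminogen receptor component, rose by 2.97 ± 0.11, Robo4, a guidance receptor of endothelium, by 1.76 ± 0.13 and the chemokine Cxcl12 by 1.40 ± 0.09. The endothelin gene Edn2 was at 5.37 to 6.06 in hypoxia, and none of the 6 normoxia cultures was above the floor, which is at least 2.75-fold higher. Its call was lost under the fixed block (adjusted p = 0.15).

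**Figure D2:**
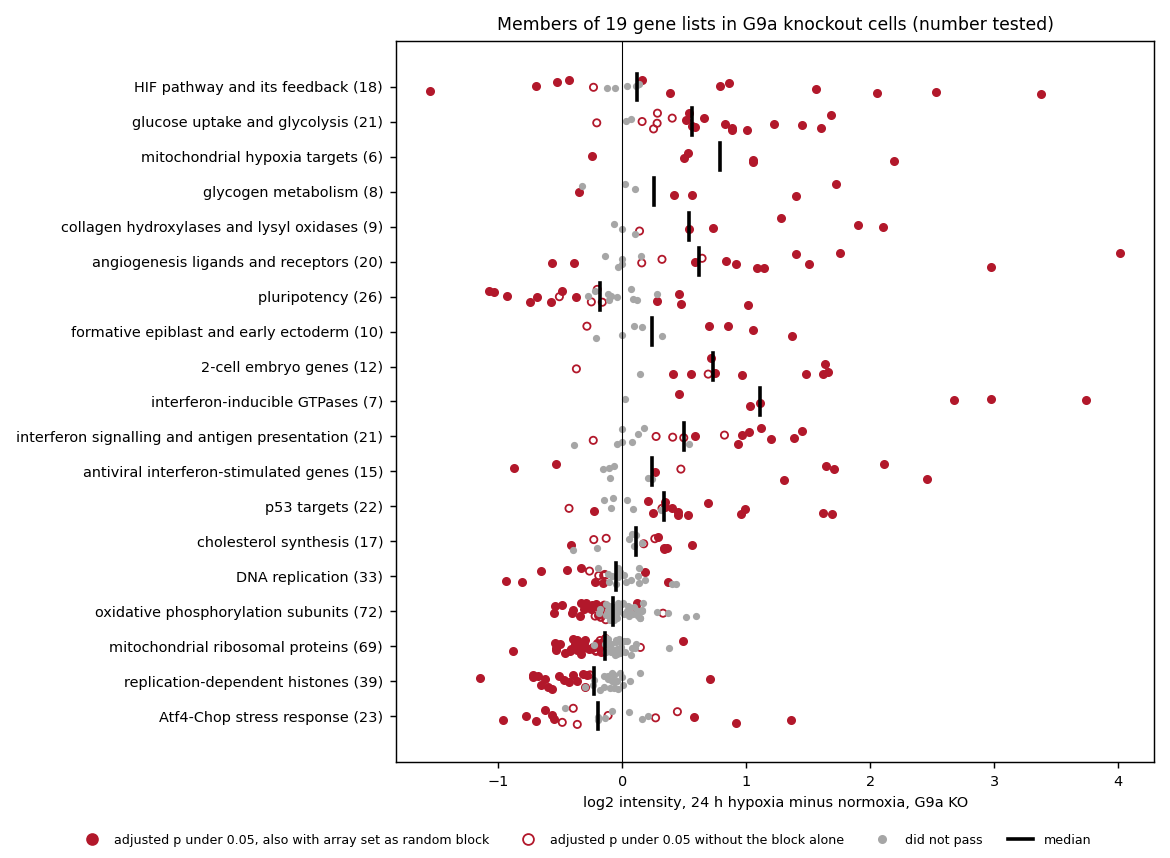
Change of each tested member of 19 gene lists between 24 h hypoxia and normoxia in G9a KO cells (log2 intensity). Filled red points passed with and without the array set as a random block, open red points without it alone, grey points did not pass, and bars are medians. Medians run from −0.23 for replication-dependent histones to 1.11 for interferon-inducible GTPases.

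Interferon-inducible GTPases and other interferon targets rose in G9a KO hypoxia. Interferons act through Jak kinases and Stat and Irf factors, which bind short elements in promoters, and the resulting GTPases, antigen-processing proteins and antiviral sensors defend cells against infection. Of 7 interferon-inducible GTPases tested, 6 rose and none fell, with a median of 1.11. Of 21 interferon signalling and antigen presentation genes, 8 rose and none fell (median 0.50), and of 15 antiviral interferon-stimulated genes, 6 rose and 2 fell (median 0.24). Under the fixed block 3 of the 7 GTPases passed, with a list median of 0.71.

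The promoters of 5 GTPases are shown because these genes share a known interferon element. The element is GAAA, any 2 bases, then GAAA again. Searched on both strands, it was in 6 of the 7 GTPases with a window (85.71%), in 3.44% of all windows and in 3.70% of tested genes with a window. The 6 were Gbp2, Gbp3, Igtp, Irgm1, Irgm2 and Tgtp1. Ifi47, the GTPase with the largest change, held no match. The interferon element was also in 4 of 20 interferon signalling and antigen presentation genes and in 6 of 12 antiviral genes with a window. Ifitm2 and Ifitm3, which fell, are among those antiviral genes. The Stat element TTCNNNGAA was in 3 of the 7 GTPases (Igtp, Irgm2 and Tgtp1), in 8.30% of all windows and in 8.14% of tested genes with a window. A match says nothing of binding. Each stretch below spans 100 bases before to 20 after the start (RefSeq, GRCm38.p6). Capitals mark the matches, and in Gbp2 and Gbp3 the interferon element lies on the other strand and reads as its reverse complement. Gbp2 is chr3:142620563-142620682, Gbp3 chr3:142559944-142560063, Igtp chr11:58199456-58199575 and Irgm2 chr11:58214877-58214996, all on the plus strand, and Irgm1 is chr11:48871401-48871520 on the minus strand.
Gbp2: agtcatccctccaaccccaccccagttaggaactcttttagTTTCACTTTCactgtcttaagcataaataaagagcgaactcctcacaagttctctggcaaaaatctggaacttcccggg
Gbp3: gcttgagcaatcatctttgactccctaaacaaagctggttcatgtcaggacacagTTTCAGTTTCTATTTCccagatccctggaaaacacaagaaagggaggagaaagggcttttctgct
Igtp: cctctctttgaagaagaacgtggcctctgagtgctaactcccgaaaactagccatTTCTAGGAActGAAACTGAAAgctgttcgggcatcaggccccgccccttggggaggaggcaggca
Irgm2: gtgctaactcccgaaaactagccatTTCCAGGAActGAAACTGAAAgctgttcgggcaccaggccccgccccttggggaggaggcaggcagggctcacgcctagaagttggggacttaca
Irgm1: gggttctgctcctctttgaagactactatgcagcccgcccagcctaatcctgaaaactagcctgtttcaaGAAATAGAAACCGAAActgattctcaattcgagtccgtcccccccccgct
The element starts 59 bases upstream of the start in Gbp2, 34 in Igtp and 64 in Irgm2. Gbp3 holds 2 overlapping matches at 39 and 45, and Irgm1 2 at 24 and 30. Igtp and Irgm2 carry the Stat element directly before it, at 45 and 75.

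The GTPase with the largest change was Ifi47, an immunity-related GTPase of the interferon-gamma response. It ran from 8.63 through 9.03 to 9.41 in G9a KO hypoxia, against 4.42, 5.35 and 6.43 in G9a KO normoxia, and rose by 3.74 ± 0.23 (adjusted p = 9.62e-18). Gbp2, a guanylate-binding protein, ran from 8.99 through 9.51 to 10.25 in hypoxia, against 4.93, 6.77 and 8.15 in normoxia, where the G9a KO2 cultures (4.93 to 5.74) were all below those of G9a KO1 (7.81 to 8.15). It rose by 2.97 ± 0.10. Gbp3 rose by 2.67 ± 0.14, with 2 normoxia cultures at the floor, and Igtp by 1.11 ± 0.14 and Irgm2 by 1.03 ± 0.11. The calls of Igtp and Irgm2 were lost under the fixed block (adjusted p = 0.053 and 0.26), where Ifi47 kept 2.83 and Gbp2 2.20. Tgtp1 gave no value above the floor in normoxia and was at least 1.32-fold higher in hypoxia. The brightest Irgm1 probe, near the top of the array's range at 14.43 to 14.71 in hypoxia and 14.32 to 14.71 in normoxia, gave 0.02 ± 0.08 and did not pass. The other 2 Irgm1 probes gave 2.05 and 2.01, so the probes of this gene disagree.

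Antiviral sensors and antigen processing followed. Zbp1, a sensor of Z-form nucleic acid, ran from 7.24 through 7.37 to 8.00 in G9a KO hypoxia, against 4.63, 5.06 and 5.35 in G9a KO normoxia. It rose by 2.46 ± 0.14, and the groups lay more than 1 log2 unit apart; a second, dim Zbp1 probe gave 0.22. Oasl2, of the oligoadenylate synthetase family, rose by 2.11 ± 0.10 on its main probe, and a further probe near the floor gave 0.05. The mono-ADP-ribosyltransferase Parp14 rose by 1.71 ± 0.15 and Ifi35 by 1.64 ± 0.11. The membrane proteins Ifitm2 and Ifitm3, which restrict virus entry and are abundant in ES cells, fell by 0.53 ± 0.05 and 0.88 ± 0.07. The immunoproteasome subunit Psmb9 ran from 6.19 through 6.55 to 7.19 in hypoxia and from 4.78 through 5.22 to 5.56 in normoxia, and rose by 1.45 ± 0.11. The checkpoint ligand Cd274 rose by 1.38 ± 0.14, the transcription factor Irf1 by 1.20 ± 0.08 and the peptide transporter subunit Tap2 by 1.12 ± 0.10.

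Between 4 h and 24 h of hypoxia, where the arrays of G9a KO2 and 2 of the 3 densities of G9a KO1 share sets with each other, 1488 genes were higher (17.2%) and 1744 lower (20.2%) at 24 h. This contrast shares its 24 h cultures with the comparison above. It also holds the G9a KO2 culture at 200000 cells and 4 h, whose array stood apart with 79.75% of probes above the lowest value; without it 1401 genes were higher and 1658 lower. In that contrast Gbp2 was higher by 1.79 ± 0.10, Zbp1 by 1.32 ± 0.14, Oasl2 by 2.21 ± 0.10 and Psmb9 by 1.38 ± 0.11. Relative to normoxia, Oasl2 had changed by −0.10 and Psmb9 by 0.07 at 4 h. Adm and Slc16a3, in contrast, had reached 3.72 and 1.34 above normoxia at 4 h and changed by 0.29 ± 0.19 and 0.26 ± 0.12 between 4 h and 24 h, which did not pass the threshold.

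Genes of the 2-cell embryo rose in G9a KO hypoxia. These genes are transcribed when the mouse embryo first switches on its genome and, in ES cell culture, by a rare subset of cells. Of 19 members listed, 12 were tested, and of these 9 rose and none fell, 8 passed under the fixed block, and the median was 0.73. A gene was tested if it was above the floor on all 3 arrays of any line and exposure. Arg2, at the floor in G9a KO normoxia, can have entered through its hypoxia cultures alone, so its place in the count adds no support. Several belong to families of near-identical copies (Tcstv, Zscan4, Tdpoz, Pramel), whose probes may not tell the copies apart. In bulk cultures, more cells of a subset and more RNA per cell cannot be told apart.

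Tcstv3, a gene of the telomere-associated Zscan4 state, ran from 8.69 through 9.46 to 10.07 in G9a KO hypoxia, against 7.37, 7.76 and 8.26 in G9a KO normoxia, and rose by 1.66 ± 0.22 (adjusted p = 3.12e-08). Pramel31 was at 5.97 to 7.76 in hypoxia and at 4.88 to 5.50 in normoxia, a rise of 1.64 ± 0.15, and Tcstv1, of the same family as Tcstv3, rose by 1.62 ± 0.22. The arginase gene Arg2 was at 5.16, 6.12 and 6.41 in G9a KO1 hypoxia and at 5.33, 6.04 and 5.74 in G9a KO2 hypoxia. No normoxia culture was above the floor, so it was at least 2.69-fold higher. Zscan4c changed by 0.69 ± 0.22 without the set and was not called with it as a random block (adjusted p = 0.147). Pramel6, expressed in naive ES cells, changed by −0.37 ± 0.10 and was likewise not called with the block (adjusted p = 0.0713). Between 4 h and 24 h of hypoxia, Tcstv3 was higher by 1.74 ± 0.22 and Arg2 by 1.41 ± 0.10. At 4 h Arg2 was at the floor in 5 of 6 cultures.

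Seeding density changed the size of the response in G9a KO cells. Since all 3 densities of a G9a KO line and exposure lie in 1 array set, the array sets cancel in this comparison. The response rose with density for 36 of 8639 genes (0.417%) and fell with it for 28 (0.324%) at an adjusted p under 0.05. Each of these 64 genes moved the same way in both lines. Since 1 slope was fitted to both lines together, this follows largely from the call and adds no separate support. The slope is the change of the log2 response per step of 200000 cells per dish.

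The genes whose response rose with density were led by members of the Pramel family: Pramel39 (1.43 ± 0.10 per step), Pramel20 (1.22 ± 0.10) and Pramel37 (1.20 ± 0.09), followed by AF067061 (1.17 ± 0.15) and Gm13043 (1.14 ± 0.16). Pramel39 was at 6.46, 7.48 and 8.51 at 200000, 400000 and 600000 cells in G9a KO1 hypoxia, and at 6.26, 5.97 and 5.91 in G9a KO1 normoxia. In G9a KO2 it was at 6.08, 7.11 and 8.38 in hypoxia and at 6.23, 5.64 and 5.22 in normoxia. At the lowest density the exposures thus differed by 0.20 in G9a KO1 and at the highest by 2.61. Of the 12 genes of the 2-cell list, 5 had a slope past the threshold (Tcstv1, Pramel31, Tcstv3, Zscan4c and Tdpoz4), none had a negative slope, and the median slope was 0.523, against −0.000 over all genes. Zscan4c, which was called in the comparison of means without the set and not with the random block, was at 7.86, 8.54 and 9.19 in G9a KO1 hypoxia and at 8.19, 8.16 and 7.59 in G9a KO1 normoxia, with a slope of 0.94 ± 0.11.

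The genes whose response shrank with density were led by the hypoxia targets Bhlhe40 (−1.10 ± 0.14 per step) and Egln3 (−0.97 ± 0.14) and by Ier3, an early response gene (−0.96 ± 0.14). Most hypoxia genes did not pass. A negative slope was called for 2 of 18 pathway and feedback genes, 1 of 21 glycolysis genes and 0 of 6 mitochondrial hypoxia targets. Egln3 was flat in hypoxia, at 10.74, 10.86 and 10.85 in G9a KO1 and at 10.63, 10.65 and 10.67 in G9a KO2. In normoxia it climbed with density, at 7.12, 8.48 and 9.24 in G9a KO1 and at 6.99, 8.47 and 8.89 in G9a KO2. Of the 28 genes, 27 climbed with density in normoxia. They include Ldha, the lactate dehydrogenase subunit (−0.23 ± 0.035), Pgm1 (−0.52 ± 0.06) and Irf1 (−0.30 ± 0.03). The response of Bhlhe40, Egln3 and Ier3 also shrank per step in other lines. It changed by −0.70, −0.81 and −0.40 in WT and by −1.36, −1.11 and −1.07 in the reconstituted line. Of the 28 genes, 18 had a negative step in WT. Steps in these lines were not tested, and their densities span array sets, so the sets do not cancel.

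The density calls rest on few cultures. Leaving out 1 culture at a time left 8 to 37 genes whose response rose with density and 0 to 25 whose response fell, and 11 of the 12 cultures, all but that of G9a KO2 hypoxia at 400000, moved at least 1 of these counts by over 1.5 times. Pramel39, Pramel20, Pramel37 and Tcstv3 passed in all 12 of these fits, whereas Pramel31 passed in 7, Zscan4c in 5, Tcstv1, Bhlhe40 and Irf1 in 3, AF067061, Ier3 and Pgm1 in 2, Egln3 and Tdpoz4 in 1, and Gm13043 and Ldha in 0. The call of Ldha was also lost on unscaled values, with median scaling and under other filters. With either line alone no gene passed.

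**Figure D3:**
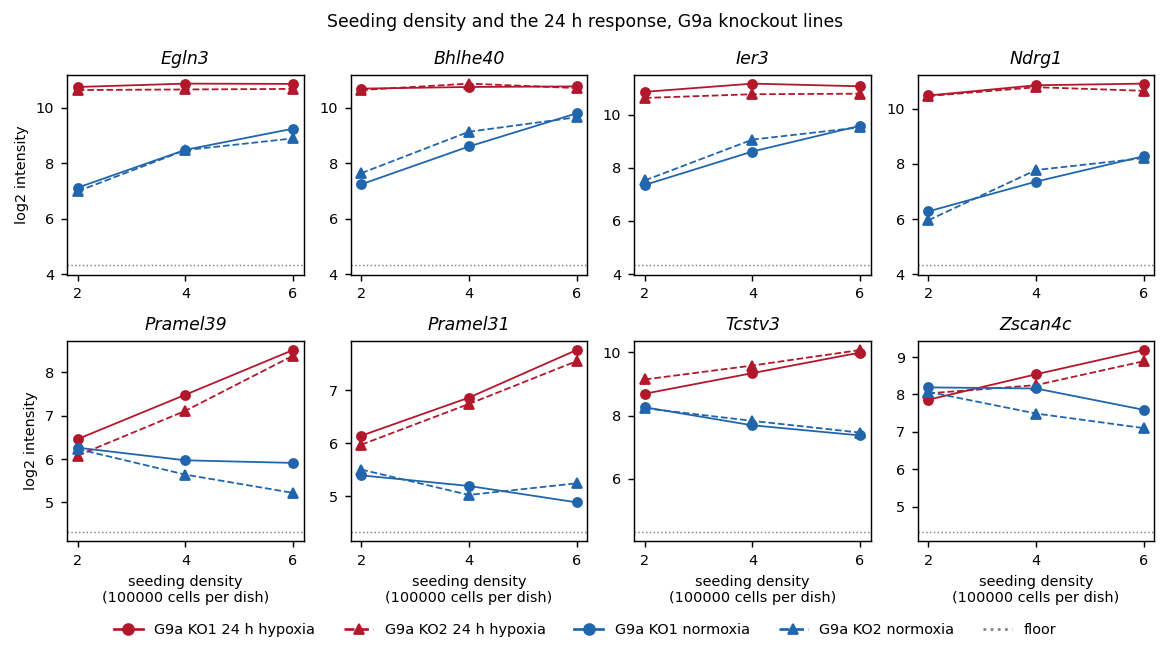
Log2 intensity of 8 genes against seeding density (cells per dish, scaled as the axis states) in G9a KO1 (solid lines) and G9a KO2 (dashed lines), 24 h hypoxia in red and normoxia in blue. Each point is 1 culture, and the dotted line is the floor. In the upper row hypoxia is nearly flat and normoxia climbs (Egln3 6.99 to 9.24), though the slope of Ndrg1 (−0.91) did not pass. In the lower row the exposures separate as density increases (Pramel39 8.51 against 5.91 in G9a KO1 at the highest density).

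Among p53 targets, genes of growth arrest and apoptosis, 13 of 22 rose and 1 fell, with a median of 0.33, and 9 passed under the fixed block. The cell cycle inhibitor Cdkn1a ran from 9.18 through 9.46 to 9.57 in G9a KO hypoxia, against 8.53, 8.73 and 8.89 in G9a KO normoxia, and rose by 0.69 ± 0.07. Mdm2, the ubiquitin ligase that restrains p53, rose by 0.45 ± 0.06, Plk2 by 0.99 ± 0.13 and Phlda3, an inhibitor of Akt, by 0.96 ± 0.09. The largest changes of the list were those of Perp (1.69 ± 0.23) and the antiproliferative Btg2 (1.62 ± 0.21). Both kept their calls with the set as a random block and as a fixed block. Btg2 was at 7.52, 7.76 and 7.89 in G9a KO1 hypoxia and at 4.32, 4.32 and 4.41 in G9a KO1 normoxia. In G9a KO2 it was at 6.15, 6.75 and 6.44 in hypoxia and at 6.28, 6.50 and 6.96 in normoxia, arrays that lie in the set of the G9a KO1 hypoxia arrays. Without G9a KO1 the call of Perp was lost, and the change of Btg2 was −0.13. The part of line and array set in this was not tested.

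Pluripotency genes moved in both directions, more often down. Of 26 tested, 8 fell and 4 rose (median −0.18). Dppa3, a protein of the naive state and germline, ran from 8.99 through 9.09 to 9.26 in G9a KO hypoxia, against 9.85, 10.11 and 10.46 in G9a KO normoxia, and fell by 1.03 ± 0.07. The Akt coactivator Tcl1 fell by 1.08 ± 0.10, and the naive factors Tbx3, Esrrb and Zfp42 by 0.93 ± 0.12, 0.69 ± 0.08 and 0.58 ± 0.07. Of the 4 that rose, Tdgf1 had the largest change, 1.01 on its main probe and 0.93 on a second. Its call was lost in each of the 12 fits that left out 1 culture. The core factors stayed near their levels: Pou5f1 changed by −0.16 ± 0.05 and Nanog by −0.25 ± 0.10, neither called with the random block (adjusted p = 0.11 and 0.25). Sox2 gave 0.28 ± 0.43 (adjusted p = 0.66) on its brighter probe and −0.58 on a second one.

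Of 10 formative epiblast and early ectoderm genes, 4 rose and none fell (median 0.24). The growth factor gene Fgf5 was at 6.75, 7.36 and 7.06 in G9a KO1 hypoxia and at 5.38, 6.08 and 5.50 in G9a KO2 hypoxia. It was at 5.67, 5.67 and 5.63 in G9a KO1 normoxia and at the floor in G9a KO2 normoxia, and rose by 1.37 ± 0.11. Hypoxia was higher at every density within a line, while the groups overlap across lines. Otx2, a head and epiblast transcription factor, rose by 1.06 ± 0.09 and Pou3f1 by 0.85 ± 0.08.

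Among genes of growth and respiration most members did not pass. Over all genes tested 14.9% fell and 14.7% rose, and these lists were not tested against those shares. Of 33 DNA replication genes, 7 fell and 2 rose (median −0.05), led by the replication factor Mcm10. Mcm10 ran from 9.42 through 9.80 to 9.82 in G9a KO hypoxia, against 10.46, 10.66 and 10.82 in G9a KO normoxia, and fell by 0.94 ± 0.06, and the helicase subunit Mcm7 fell by 0.65 ± 0.08. Of 39 replication-dependent histone genes, 16 fell and 1 rose (median −0.23). Many of these histone genes are near-identical copies. H3c7 fell by 1.15 ± 0.15 to levels at or near the floor in hypoxia (4.32 to 4.70, against 4.88 to 6.31 in normoxia), while H2bc4 rose by 0.71 ± 0.12.

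Of 69 mitochondrial ribosomal proteins, 25 fell and 1 rose (median −0.14), and of 72 oxidative phosphorylation subunits, 15 fell and 1 rose (median −0.08). Under the fixed block 14 and 6 were lower, where 8.24% of all genes tested were. The 6 of 72 is near that share. Mrpl42 was at 10.06 to 10.47 in hypoxia and at 10.67 to 11.01 in normoxia, a fall of 0.55 ± 0.08, and the ATP synthase subunit Atp5o fell by 0.54 ± 0.06.

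Among targets of the stress factors Atf4 and Chop, 6 of 23 fell and 3 rose (median −0.19). For this list and the next, the shares over all genes were 14.9% and 14.7%. Atf4 itself fell by 0.78 ± 0.12 and the cysteine-forming enzyme Cth by 0.96 ± 0.15, whereas Stc2, a secreted glycoprotein, rose by 1.36 ± 0.17. Of 17 cholesterol synthesis genes, 4 rose and 1 fell (median 0.11). None of those 4 passed under the fixed block, where the sterol demethylation enzyme Msmo1, at 0.56 ± 0.10 without the set, was at 0.05.

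The genes that fell most lie mostly outside these lists. Slc47a1, an exporter of organic cations, ran from 5.19 through 5.29 to 5.50 in G9a KO hypoxia, against 7.37, 7.42 and 7.54 in G9a KO normoxia, and fell by 2.11 ± 0.11 (adjusted p = 5.91e-20). Igfbp7, a secreted growth factor-binding protein, fell by 1.99 ± 0.16, the lens crystallin Crygd by 1.97 ± 0.14 and the ferritin-like Fthl17f by 1.74 ± 0.12. Surfactant protein D (Sftpd) ran from 5.01 through 5.07 to 5.60 in hypoxia, against 6.63, 6.85 and 7.20 in normoxia, and fell by 1.67 ± 0.08. Ttc29 fell by 1.73 ± 0.09, and Akr1c18, an aldo-keto reductase, by 1.67 ± 0.09. Its relative Akr1c12 was at 5.57 to 6.02 in hypoxia and at 7.16 to 7.54 in normoxia. Klra22, 4930486L24Rik and Kank4 fell by 1.53 ± 0.10, 1.45 ± 0.07 and 1.43 ± 0.12. A second Kank4 probe, at the floor in hypoxia, gave −0.21. Akr1c18 reached the floor in 5 of 6 hypoxia cultures, so its fall can be understated.

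The remaining genes with the largest rises were Bdnf, a neurotrophin (3.34 ± 0.12), the simple-epithelial keratin Krt19 (2.96 ± 0.15), the cytochromes P450 Cyp1b1 (2.95 ± 0.16) and Cyp2s1 (2.87 ± 0.12), the iron exporter Slc40a1 (2.75 ± 0.09) and Igfbp4, which binds insulin-like growth factors (2.66 ± 0.17). The other, dimmer Bdnf probes were at the floor in normoxia and gave 0.99 and 1.11. Cyp1b1 was at 6.79 to 7.81 in G9a KO hypoxia and at the floor in 5 of 6 normoxia cultures. Slc40a1 was at 8.43 to 8.55 in G9a KO1 hypoxia and 7.11 to 7.43 in G9a KO2 hypoxia, against 5.76 to 6.15 in G9a KO1 normoxia and the floor in G9a KO2 normoxia. G9a KO1 was higher than G9a KO2 under both exposures, and the groups did not overlap.

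Cell type markers were read beside these results. All 10 ES cell markers were above the floor, with a summed intensity of 48794.4 to 52877.7 in hypoxia and 51434.4 to 55443.3 in normoxia. Without the set 6 of them were lower and 1 higher in hypoxia. Of 10 fibroblast feeder markers 3 were tested, Col1a1 was at the floor, and their sum was 88.9 to 266.8 in hypoxia and 98.1 to 359.5 in normoxia. Of 7 primitive endoderm markers 4 were tested and 2 rose, with sums of 1281.7 to 1765.9 and 842.4 to 1619.8. Of 5 trophectoderm markers 3 were tested, Cdx2 was at the floor, and the sums were 68.8 to 94.0 and 60.0 to 106.5. The keratin Krt7, 1 of the 3, was higher by 0.35 without the set and was not called with the random block (adjusted p = 0.495). The part of these markers in the results above was not tested.

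**Figure D4:**
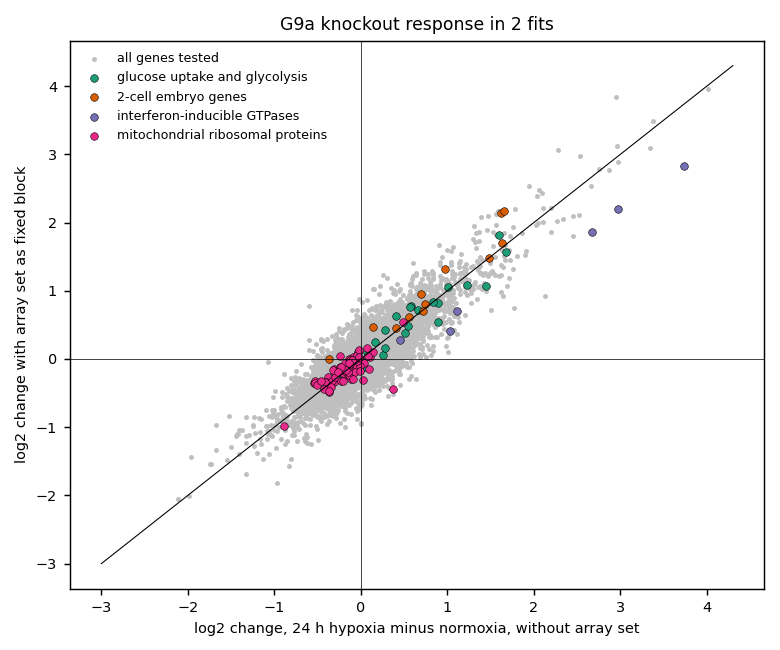
Change of each of 8639 genes in G9a KO cells (log2 intensity, 24 h hypoxia minus normoxia) without the array set (horizontal) and with it as a fixed block (vertical), with 4 lists in colour and the line of equality. Interferon-inducible GTPases lie below the line (Ifi47 3.74 and 2.83), while several 2-cell genes lie above it (Tcstv3 1.66 and 2.16).

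Both lines carried the response. G9a KO1 alone had 1503 genes higher (17.4%) and 2005 lower (23.2%), and G9a KO2 alone 1353 higher (15.7%) and 1151 lower (13.3%). Their responses differed for 215 genes with KO1 above KO2 (2.49%) and 50 with KO1 below KO2 (0.579%), but the split depended on scaling (359 and 22 on unscaled values, 334 and 18 with median scaling). With the set as a random block 18 (0.208%) and 1 (0.0116%) remained. Leaving out the G9a KO2 hypoxia culture at 600000 cells left 33 genes with KO1 below KO2, where 50 had been called.

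Cks1b, a cell cycle kinase subunit, was at 7.41, 7.99 and 7.36 in G9a KO1 hypoxia and at 5.21, 5.03 and 5.29 in G9a KO1 normoxia. In G9a KO2 it was at 5.96, 5.20 and 5.45 in hypoxia and at 7.38, 7.64 and 7.86 in normoxia. The high values of both lines are those of 1 array set. Gnpnat1, of amino sugar synthesis, had the same layout, at 6.01 to 6.47 in G9a KO1 hypoxia and 7.00 to 7.34 in G9a KO2 normoxia and below 5 in the other 6 cultures. Gbp2 was the gene that remained with KO1 below KO2: it changed by 2.01 in G9a KO1 and by 3.94 in G9a KO2, a difference of −1.93 ± 0.21. Its second probe gave 3.88 in G9a KO1 and 2.23 in G9a KO2, so the probes order the lines differently.

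The response of G9a KO cells was set against that of wild-type cells with the line as the replicate, 2 lines against 2. All 7 lines were fitted with a mean for each genotype, so the 2 Jmjd1a knockout lines add to the estimate of the spread. No gene passed in either direction (limma, 0% of 8639), and 537 had an unadjusted p under 0.05, of which 316 were higher and 221 lower in G9a KO. Ndrg1 changed by 3.38 in G9a KO and by 3.03 in WT, a difference of 0.34 ± 0.18. The list of GTPases had a median of 1.11 in G9a KO and 0.65 in WT. Ifi47 changed by 3.74 in G9a KO and by 1.90 in WT, a difference of 1.84 ± 0.31, and Gbp3 by 2.67 and 1.78, a difference of 0.89 ± 0.25. Zbp1 changed by 2.46 in G9a KO and by 0.72 in WT, a difference of 1.74 ± 0.24 that did not pass after adjustment. The median of the 2-cell list was 0.73 in G9a KO and −0.00 in WT. Arg2, Pramel31 and Tdpoz4 were at the floor in all 12 wild-type cultures, so a response of these genes could not be measured there.

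Against the reconstituted line, a comparison of 1 line with 1 line, the response of G9a KO1 was higher for 956 genes (11.1%) and lower for 1848 (21.4%). The split turned with scaling (1653 and 785 unscaled, 1269 and 922 with median scaling), and with the set as a random block 146 (1.69%) and 157 (1.82%) remained. Leaving out the reconstituted normoxia culture at 200000 or at 400000 cells left 1072 and 1164 genes lower.

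Pramel31, Arg2, Tdpoz4, Sftpd and 4930486L24Rik were at the floor in all 6 reconstituted cultures, so a response of these genes could not be measured there. Zbp1 changed by 2.61 in G9a KO1 and by 0.34 in reconstituted cells, a difference of 2.27 ± 0.29 that also passed with the random block. Slc47a1 changed by −2.15 in G9a KO1 and by −0.54 in the reconstituted line, a difference of −1.62 ± 0.22 that passed with the block too. Perp, Btg2 and Nmi, an interferon-regulated partner of Stat proteins, had differences of 3.84, 4.11 and 3.89. In the reconstituted normoxia cultures Perp was at 6.00 and 5.87 on the 2 arrays of 1 set and at 4.32 on the array of the other set.

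**Figure D5:**
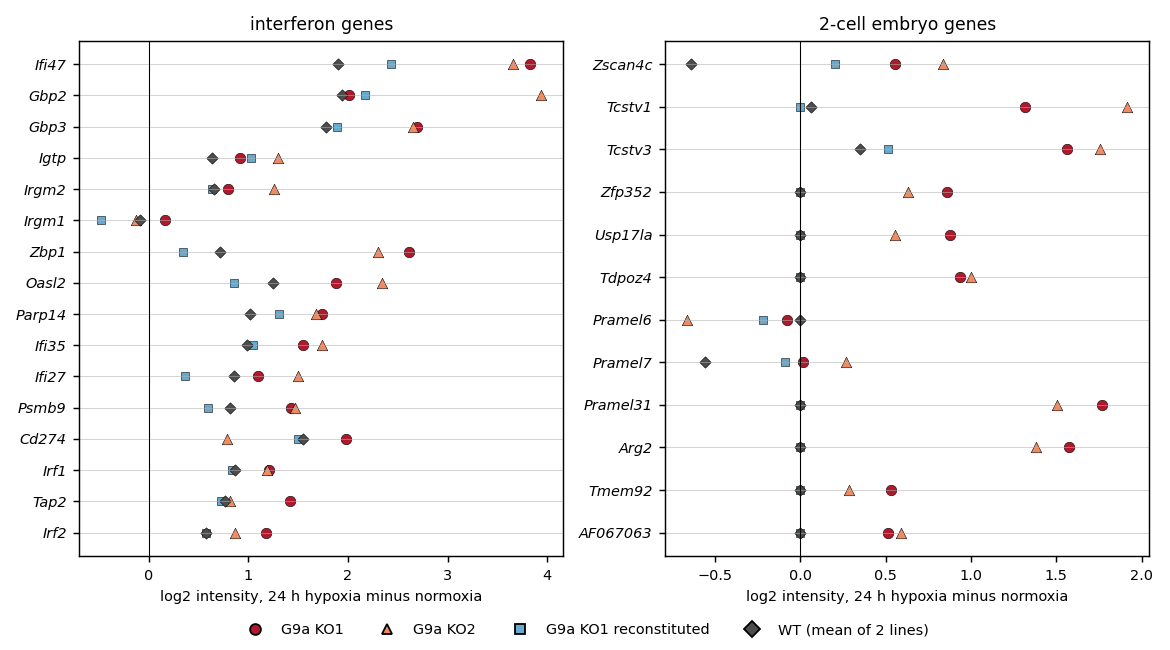
Change between 24 h hypoxia and normoxia (log2 intensity) of 16 interferon genes and 12 genes of the 2-cell embryo in G9a KO1, G9a KO2, G9a KO1 reconstituted and WT (mean of 2 lines). The 16 are Irgm1 and the list members of largest change called in G9a KO cells, so their rise there follows from the choice. Ifitm2 and Ifitm3, which fell, are not shown. The whole antiviral list had a median of 0.0 in reconstituted and 0.08 in WT, and the GTPase list 1.03 and 0.65. All 16 interferon genes but Irgm1, at its brightest probe, were above 0 in each of these (Ifi47 3.82 in G9a KO1, 3.66 in G9a KO2, 2.43 in reconstituted, 1.90 in WT), while 2-cell genes such as Arg2 and Pramel31 were at the floor, and hence at 0, in reconstituted and WT cells.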

How the data were processed

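Gene expression was measured on 63 Illumina BeadChip arrays, 1 per culture, from 500 ng of labelled RNA each, per the labels' protocols. The deposited values are intensities on a linear scale with a lowest value of 20. BeadStudio is named in the submitters' processing notes, with no version or settings in the sources used. A companion table with 126 columns of per-sample values was not used.

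Intensities were taken as log2, quantile normalized across arrays and floored at 4.32, with values within 0.05 of the floor set to it. Probes above the floor in 3 arrays of any line and exposure were kept, and the brightest probe stood for each gene, which left 8639 genes. Genes at the floor throughout 1 group, such as Arg2, Edn2 and Tgtp1, can have entered through the group where they are high. Of 25697 probes, 23978 had 1 gene symbol and 1719 none. limma 3.58.1 in R 4.3.3 fitted a mean for each line and exposure and a factor for density over all 63 arrays. Adjusted p-values are Benjamini-Hochberg over all genes. The array set entered as a random block (correlation 0.714) or a fixed block. Lines served as replicates against WT, and the density slope was fitted on the 12 arrays. The scripts were tested on simulated data.

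Named genes are Ehmt2 and Kdm3a, the 12 largest changes in each direction that passed with and without the random block and went the same way in all 6 pairs, up to 5 called members of each list and any member a sentence turns on, and the 5 largest in each direction of each difference. The members and lists were chosen with earlier results of these data known. Same-density cultures of a line were not treated as pairs, since their deviations correlated at −0.0609 to 0.336. Alternatives covered scaling, filters, probe choice, array set, replicates and lines.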

Additional observations from a re-analysis of the deposited data

Results flagged for a closer look

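In 12 of 278 groups of 6 cultures, for the genes described, 1 culture stood apart from the rest by a share of the group's range above Dixon's critical value. Chance alone flags about 1 in 20 groups. For Cd274, Cyp1b1, Irf2, Krt19, Slc16a3 and Tap2 in normoxia and Akr1c18 in 24 h hypoxia this share was 1.0, because every other culture was at the floor. It was 0.712 for the highest culture of Gsc and 0.626 for the lowest culture of Tfrc in 24 h hypoxia. In normoxia it was 0.729 for the highest culture of Nanog, 0.65 for the highest of Bdnf and 0.649 for the lowest of Mrpl47.

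Among the genes singled out for these differences, 8 had a difference between the responses of 2 lines past the threshold, also with the array set as a random block. Between G9a KO1 and G9a KO2 these were Cks1b (4.50), Gnpnat1 (4.11) and Gbp2 (−1.93). Between G9a KO1 and the reconstituted line they were Btg2 (4.11), Nmi (3.89), Perp (3.84), Pramel31 (1.77) and Crygd (−2.01). Pramel31 was at the floor in every reconstituted culture, and Crygd was at 4.32 to 4.55 there, so the reconstituted response of these 2 genes was not measurable or close to the floor. Passing with the random block does not separate line from array set. The high values of Cks1b and Gnpnat1 lie on arrays of 1 set, and Perp in reconstituted normoxia split by set. The second Gbp2 probe orders the lines the other way (3.88 in G9a KO1 and 2.23 in G9a KO2).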

How the results depend on the processing

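For 163 combinations of a gene and a comparison, 3879 results under alternatives were computed. Of these, 3584 kept direction and side of the threshold, 265 lost the call, 16 gained it, 11 moved and 3 reversed. Pramel6, at −0.37, was at 0.002 with the set as a fixed block and at 0.0131 with it and without the array that stands apart. Btg2 was at −0.13 without G9a KO1. The cause was not tested.

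For hypoxia against normoxia, the fixed block gave 951 genes higher and 783 lower (927 and 778 without the array that stands apart). The random block gave 1306 lower, and leaving out G9a KO1 1123 lower. Unscaled values gave 2205 higher and 1815 lower, and median scaling 2036 and 1824. Leaving out 1 culture gave 1708 to 1778 higher and 1941 to 2069 lower. With the replicate block of line and density, 1645 were higher and 1882 lower.

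For G9a KO1 against G9a KO2, the random block gave 18 and 1 (higher and lower), unscaled values 359 and 22, median scaling 334 and 18, and probes above the floor on all arrays 3 and 8. Leaving out 1 culture gave 192 to 215 and 33 to 63. For G9a KO against WT, cultures as replicates gave 656 and 565, the same with the random block 320 and 248, and no filter 11 and 10. For G9a KO1 against the reconstituted line, the random block gave 146 and 157, unscaled values 1653 and 785, probes above the floor on all arrays 463 higher, and median scaling 922 lower. Leaving out 1 culture gave 657 to 1330 and 1072 to 2630. For the density slope, probes above the floor on all arrays gave 19 higher, no filter 13 lower, and either line alone 0 and 0 (limma, with 994 genes at an unadjusted p under 0.05 without G9a KO1 and 931 without G9a KO2). Leaving out 1 culture gave 8 to 37 and 0 to 25.

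Signal limits the rest: 5912 of 8639 genes were above the floor on all arrays, and changes of genes at the floor are understated. The median SE was 0.089, and 0.166 with the fixed block, under which 169 of 3980 called genes had the opposite sign.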

Other observations

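Other groups were read in G9a KO cells as well. Over all genes tested 14.7% rose and 14.9% fell, and the groups below were not tested against these shares. Of 21 enzymes and readers of histone H3 lysine 9 methylation, 5 rose and 4 fell after 24 h of hypoxia. The demethylase Kdm4b ran from 8.46 through 8.58 to 8.74 in hypoxia, against 7.37, 7.67 and 8.11 in normoxia, and rose by 0.86 ± 0.09. A second Kdm4b probe near the floor gave 0.21. Kdm4c, of the same family, rose by 0.78 ± 0.09. Of 13 Nodal and BMP signalling genes, 5 rose and 2 fell, among them the BMP target Id1, at 8.56, 9.05 and 9.10 in hypoxia and 7.05, 7.63 and 8.64 in normoxia (1.19 ± 0.14), and the ligand Bmp4 (0.87 ± 0.10). Of 9 mesoderm and primitive streak genes, 3 rose and 1 fell. Eomes, a transcription factor of the streak, rose by 1.62 ± 0.21, and Gsc fell by 0.61.

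Of 34 proteasome subunits, 3 rose and 8 fell. The immunoproteasome subunits Psmb9 and Psmb10 were among those that rose (1.45 and 0.93). Of 9 iron-handling genes, 3 rose and 1 fell. The transferrin receptor Tfrc ran from 11.78 through 11.94 to 11.98 in hypoxia, against 11.30, 11.36 and 11.45 in normoxia, and rose by 0.56 ± 0.05.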
